A study of Mus musculus with 7 samples.

Results

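The genes described here are 10 maternal factors that act around the activation of the embryonic genome: the transcription factors *Pou5f1*, *Sall4*, *Klf17*, *Nr5a2* and *Nfya*, the coactivator *Yap1* and its DNA-binding partner *Tead4*, the chromatin proteins *Ctcf* and *Npm2*, and the ubiquitin ligase *Rnf114*. They were listed by name, and no threshold on the values was part of the rule. Each was read from the transcript that the deposited table gives to it on its own strand, and, where there were several, from the transcript with the highest mean. This found 9 of the 10 genes among 33437 oocyte transcripts. *Ctcf* had no such transcript, because the one that covers it is listed under the neighbouring gene *Agrp*, and it was found by its position instead.

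RNA levels were measured in single germinal vesicle (GV) oocytes, which are fully grown and still arrested in meiosis, from 21-day-old C57BL6 mice. All females were labelled Setd1b floxed/floxed. Those of the *Setd1b* cKO were positive for Gdf9-Cre, a recombinase driven by an oocyte gene and active from early folliculogenesis, and those of the *Setd1b* WT were negative for it. The study compared 4 cKO with 3 WT oocytes, with 1 oocyte per library, to ask how loss of SETD1B, an enzyme that places trimethylation on lysine 4 of histone H3, alters the oocyte's transcripts. The methods of the study also count Cre carriers with 1 intact *Setd1b* allele as WT, whereas the labels give the WT as Cre negative. The labels do not say which oocytes came from the same mother, so the p-values measure the spread between these oocytes only. RNA made before the deletion cannot be told apart from RNA made after it.

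A mouse oocyte stores RNA and protein for the first cell cycles of the embryo, because its own transcription stops before it is ovulated. The embryonic genome is then switched on in the zygote and the 2-cell embryo, with factors that the oocyte supplied. POU5F1, NFYA, NR5A2 and KLF17 bind DNA at the genes and repeats that become active, NPM2 is a histone chaperone that handles sperm and oocyte chromatin, and RNF114 marks proteins for removal.

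Levels are given in RPM, a read count divided by the library's total of mapped reads and brought to a common library size, so that libraries of unequal depth can be compared. The libraries held 8582493 to 12972366 mapped reads, so that 1 read was worth 0.0771 to 0.117 RPM. Reads within the listed transcripts made up 83.6% to 86.8% of the mapped reads in the cKO and 90.1% to 90.4% in the WT. The transcript over *Setd1b* itself stood at 8.31, 16.7, 12.8 and 2.68 RPM in cKO replicates 1 to 4 and at 17.7, 16.3 and 8.61 RPM in WT replicates 1 to 3. The genotypes overlapped (log2 fold change -0.61, SE 0.49, adjusted p = 0.533), so this level did not check the labels, and all genotypes are given as labelled. The position of the floxed segment within the transcript is not given in the sources used here. Oocyte markers were abundant in every library. Their summed level over 13 genes ran from 16721 to 21031 RPM in the cKO and from 22817 to 27819 RPM in the WT, so all cKO libraries were lower. Of 16 markers of granulosa and cumulus cells, the somatic cells around the oocyte, 9 were under 1 RPM in every library. Their summed level ran from 29.8 to 62.0 RPM in the cKO and from 25.6 to 46.7 RPM in the WT. The transcript listed for *Cyp19a1* was the highest of them in every library, from 17.1 to 30.6 RPM, while *Foxl2* and *Amh* had at most 0.174 RPM. That of *Cyp19a1* was taken by its name and overlapped the annotated gene by only 0.196 of the union of both spans. *Inha*, which codes for an inhibin subunit, stood at 7.03, 11.4, 13.2 and 0.583 RPM in the cKO and at 0.81, 4.32 and 0 RPM in the WT (log2 fold change 1.70, adjusted p = 0.225), and *Fshr*, the receptor for follicle-stimulating hormone, reached 5.15 RPM.

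SETD1B and its partner CXXC1 act at promoters, and CXXC1 binds CpG dinucleotides. Promoter windows of 300 bases, from 250 before to 50 after the annotated start, were found in RefSeq (GRCm38.p6) for 7 of the 10 genes. Windows of 3 genes are printed here in lower case with each CpG in capitals. *Klf17* and *Nr5a2* are shown because they lay on opposite sides of the WT, with no overlap between genotypes, and *Yap1* because its window held the most CpGs of the 7 genes and its level varied strongly between oocytes of the same genotype. All 3 genes lie on the minus strand, at chr4:117765617-117765916 for *Klf17*, chr1:136953581-136953880 for the *Nr5a2* window nearest to the oocyte start, and chr9:8004547-8004846 for *Yap1*.
Klf17: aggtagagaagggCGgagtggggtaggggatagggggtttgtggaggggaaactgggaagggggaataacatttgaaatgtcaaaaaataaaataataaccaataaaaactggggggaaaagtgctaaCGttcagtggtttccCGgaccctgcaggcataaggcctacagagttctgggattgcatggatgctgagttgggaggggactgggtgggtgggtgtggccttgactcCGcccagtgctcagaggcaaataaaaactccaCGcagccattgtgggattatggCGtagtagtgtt
Nr5a2: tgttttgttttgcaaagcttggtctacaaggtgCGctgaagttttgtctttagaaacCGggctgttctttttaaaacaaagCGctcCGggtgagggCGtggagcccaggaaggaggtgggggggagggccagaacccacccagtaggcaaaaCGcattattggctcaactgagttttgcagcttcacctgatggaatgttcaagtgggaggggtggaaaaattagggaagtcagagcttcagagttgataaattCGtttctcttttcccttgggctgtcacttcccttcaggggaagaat
Yap1: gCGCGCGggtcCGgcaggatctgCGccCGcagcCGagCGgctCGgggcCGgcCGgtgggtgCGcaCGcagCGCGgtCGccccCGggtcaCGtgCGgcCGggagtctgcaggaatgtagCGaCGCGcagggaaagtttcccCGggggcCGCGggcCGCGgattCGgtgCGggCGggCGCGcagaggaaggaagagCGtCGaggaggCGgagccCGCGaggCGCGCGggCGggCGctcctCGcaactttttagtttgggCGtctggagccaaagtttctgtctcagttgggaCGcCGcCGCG

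The windows held 6 CpGs at *Klf17*, 7 at *Nr5a2* and 49 at *Yap1*, against a median of 7 over 32851 windows. For the other genes the window nearest to the oocyte start held 11 at *Pou5f1*, 25 at *Nfya*, 26 at *Rnf114* and 47 at *Ctcf*. The first base of the oocyte transcript lay inside a window for *Pou5f1*, *Nfya* and *Ctcf* only. It lay 402 bases upstream of the RefSeq start of *Klf17*, 797 upstream of that of *Nr5a2* and 793 upstream of that of *Yap1*, so the printed windows are the annotated promoters and need not be those used by the oocyte. The letters CCAAT, the box bound by NFY, occurred on either strand once in the *Klf17* and once in the *Nr5a2* window and not in that of *Yap1*, and 37.4% of all windows held them. The TEAD letters GGAATG occurred once in the *Nr5a2* and once in the *Yap1* window, and 14.7% of all windows held them.

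Of the 10 genes, 9 were expressed well enough to be tested, that is at 1 RPM or more in at least 3 libraries. With limma, 0 of them passed the threshold (over 2-fold changed, with an adjusted p under 0.05), which 5.71% of 18179 transcripts passed (683 higher and 355 lower in the cKO). At an unadjusted p under 0.05 there were 2 of the 9, *Klf17* and *Npm2*, against 21.7% of all transcripts. With voom, which models the recovered reads, 0 passed the threshold, and 2 or 3 had an unadjusted p under 0.05, depending on the library sizes used. All cKO libraries lay below all WT libraries for 2 of the 9 genes, against 7.14% of all transcripts, and above them for 1, against 13.2%. In the other 6 the genotypes overlapped. The log2 fold change of the cKO over the WT ran from -0.75 (*Sall4*) to 0.44 (*Nr5a2*), with 7 genes below 0 and a median of -0.21. Over all transcripts tested the median was 0.12 and 39.7% were below 0. Centring the libraries on their median gene moved the median of all transcripts to -0.03 and scaling to the reads within transcripts moved it to 0.19.

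**Figure D1:**
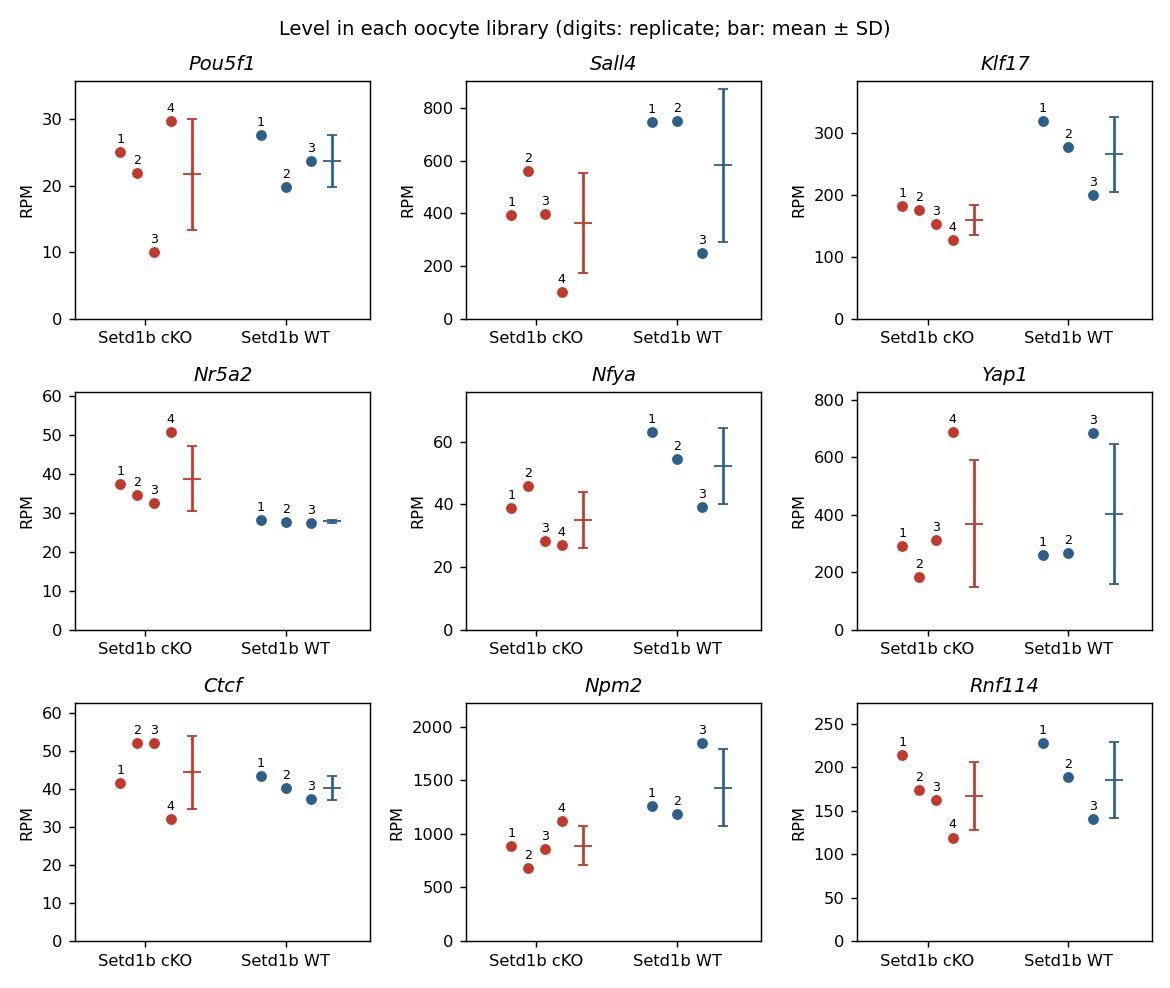
Level in RPM (y axis, linear, from 0) of the 9 maternal factors tested, in each *Setd1b* cKO (red, n = 4) and WT (blue, n = 3) oocyte library; digits give the replicate and the bars the mean ± SD. *Klf17* and *Npm2* lay below all WT libraries in every cKO library and *Nr5a2* above them, while *Sall4* was lowest and *Yap1* highest in cKO replicate 4 and WT replicate 3.

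*Klf17* had the lowest adjusted p of the group. It codes for a Krüppel-like zinc-finger protein of the oocyte and early embryo, and its transcript lay at chr4:117756647-117766068 on the minus strand (GRCm38). It stood at 182, 176, 154 and 128 RPM in cKO replicates 1 to 4 and at 321, 278 and 199.7 RPM in WT replicates 1 to 3. Every cKO oocyte was below every WT oocyte, with the highest cKO and the lowest WT value close to each other. The mean was 159.8 ± 24.6 RPM (SD, n = 4) in the cKO and 266 ± 61.3 RPM (n = 3) in the WT, and the log2 fold change was -0.72 (SE 0.23, 95% interval -1.23 to -0.20, adjusted p = 0.0986). Over 23 other settings the adjusted p ran from 0.0113 to 0.318, under 0.05 in 3 of them, and the log2 fold change from -0.91 to -0.57. The 3 same-strand genes most like it, by Pearson's r of log2 levels over the 7 libraries among 6787 genes of at least 8 RPM, were *Musk* (r = 0.992), *Calr3* (r = 0.991) and *Prep* (r = 0.988). These correlations describe 7 libraries that share the genotype difference, and carry no test.

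*Nr5a2*, a nuclear receptor that opens chromatin in the early embryo, was the only one of the 9 genes with every cKO library above every WT library. Its transcript (chr1:136842572-136954427, minus strand) stood at 37.3, 34.5, 32.5 and 50.8 RPM in the cKO and at 28.3, 27.8 and 27.4 RPM in the WT. The WT oocytes were nearly equal (CV 1.54%, against 21.3% in the cKO). The mean was 38.8 ± 8.26 RPM against 27.8 ± 0.428 RPM. This was a log2 fold change of 0.44 (SE 0.22, 95% interval -0.05 to 0.94, adjusted p = 0.281).

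*Nfya* codes for the DNA-contacting subunit of the trimeric factor NFY. Its transcript (chr17:48386885-48409925, minus strand) stood at 38.9, 45.9, 28.2 and 26.9 RPM in the cKO and at 63.2, 54.5 and 39.2 RPM in the WT. The 2 highest WT oocytes were above every cKO oocyte, and WT replicate 3 fell among the cKO values. The cKO differed from the WT by a log2 fold change of -0.57 (SE 0.26, 95% interval -1.16 to 0.01, adjusted p = 0.239).

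*Pou5f1* codes for OCT4, a POU-domain factor of the germline and of pluripotent cells. Its transcript (chr17:35506001-35510826, plus strand) stood at 25.0, 21.9, 10.1 and 29.8 RPM in the cKO and at 27.7, 19.8 and 23.8 RPM in the WT, from 116 to 342 reads. The genotypes overlapped, with the lowest and the highest values both in the cKO. Between genotypes the log2 fold change was -0.21 (SE 0.34, 95% interval -0.96 to 0.54, adjusted p = 0.789), and it was 0.10 without cKO replicate 3, the lowest library.

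*Sall4*, a zinc-finger factor of oocytes and of pluripotent cells, had the largest SD within genotypes on the log2 scale, although the CV of *Yap1* was larger in each genotype (59.8% against 52.4% in the cKO and 60.4% against 49.8% in the WT). Its transcript (chr2:168748332-168768036, minus strand) stood at 394, 561, 399 and 103 RPM in the cKO and at 747, 752 and 248 RPM in the WT, a span of 7.33 times. The lowest oocyte of each genotype, cKO replicate 4 and WT replicate 3, lay far below the others. The SD within genotypes was 1.02 on the log2 scale, and only 0.712% of 702 transcripts of like level had a larger SD. The log2 fold change was -0.75 (SE 0.56, 95% interval -1.99 to 0.50, adjusted p = 0.501). It was -0.22 without cKO replicate 4 and -1.28 without WT replicate 3.

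*Yap1*, the transcriptional coactivator restrained by the Hippo kinases, had the opposite pattern. Its transcript (chr9:7931992-8005389, minus strand) stood at 290, 184, 312 and 689 RPM in the cKO and at 259, 267 and 686 RPM in the WT. The same 2 oocytes, cKO replicate 4 and WT replicate 3, were the highest, and the others of both genotypes lay within one range. The SD within genotypes was 0.79 on the log2 scale, exceeded by 4.04% of 793 transcripts of like level. The log2 fold change was -0.14 (SE 0.45, 95% interval -1.14 to 0.85, adjusted p = 0.899), and it was 0.13 without cKO replicate 2 and 0.31 without WT replicate 3.

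*Tead4* codes for a TEAD factor through which YAP1 acts on genes in the trophectoderm, the outer layer of the blastocyst. Its transcript (chr6:128225681-128237183, minus strand) covers only the 3' part of the gene, 0.15 of the annotated span. It held 0, 0, 2 and 1 reads in the cKO and 2, 1 and 1 reads in the WT. No library passed 3 reads, which is worth 0.231 to 0.350 RPM, so no difference was detectable at this depth and none was tested.

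*Ctcf*, the insulator protein that shapes chromatin loops together with cohesin, stood at 41.6, 52.2, 52.1 and 32.0 RPM in the cKO and at 43.6, 40.3 and 37.3 RPM in the WT (chr8:105636412-105682922, plus strand). The WT lay inside the range of the cKO. Its log2 fold change was 0.11 (SE 0.23, 95% interval -0.40 to 0.62, adjusted p = 0.840), and it turned to -0.04 after the libraries were centred on their median gene.

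*Npm2* was the most abundant of the 10 genes per length. Its transcript (chr14:70647293-70653303, minus strand) stood at 883, 681, 860 and 1123 RPM in the cKO and at 1262, 1183 and 1848 RPM in the WT. Every cKO oocyte was below every WT oocyte, and the highest oocyte of each genotype was cKO replicate 4 and WT replicate 3. The mean was 887 ± 181 RPM in the cKO and 1431 ± 363 RPM in the WT, a log2 fold change of -0.68 (SE 0.26, 95% interval -1.25 to -0.12, adjusted p = 0.146). Over 23 other settings the adjusted p ran from 0.0185 to 0.380, under 0.05 in 2 of them.

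*Rnf114*, whose protein promotes the breakdown of TAB1 during the passage from maternal to embryonic control, stood at 214, 173, 163 and 119 RPM in the cKO and at 228, 189 and 141 RPM in the WT (chr2:167499735-167518306, plus strand). The genotypes overlapped over most of their range. Its log2 fold change was -0.15 (SE 0.26, 95% interval -0.72 to 0.41, adjusted p = 0.792), and it was 0.01 without WT replicate 1.

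**Figure D2:**
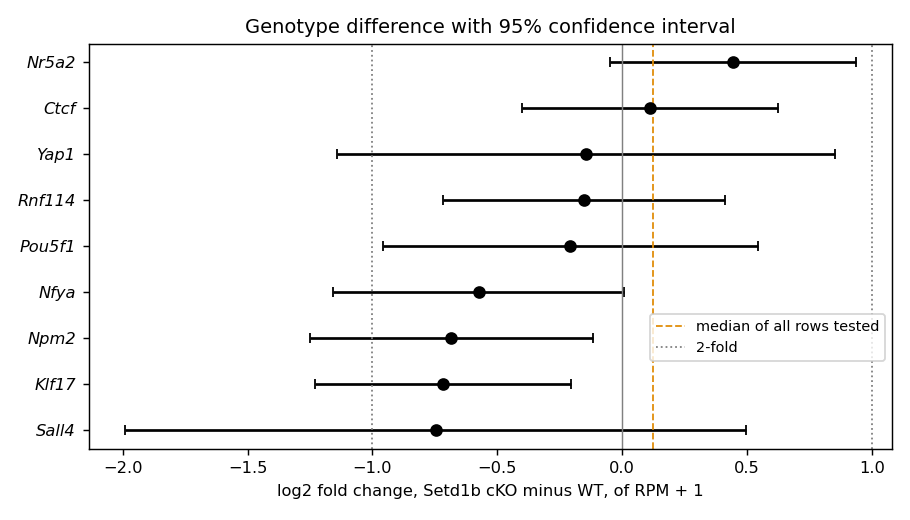
Log2 fold change of RPM + 1, *Setd1b* cKO minus WT (x axis), of the 9 maternal factors tested (y axis); points are estimates from limma and bars their 95% intervals, the dashed line marks the median of all transcripts tested (0.12) and the dotted lines a 2-fold change. The intervals of *Klf17* (-1.23 to -0.20) and *Npm2* (-1.25 to -0.12) lie below 0, and those of the other 7 genes include it.

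The intervals bound what these libraries could have missed. For *Ctcf*, *Rnf114*, *Pou5f1* and *Nr5a2* the whole interval lay within a 2-fold change in either direction in the main fit. The lower bound of *Pou5f1* (-0.96) and the upper bound of *Nr5a2* (0.94) came close to it. Scaling moved their estimates outward, to -0.36 for *Pou5f1* after centring on the median gene and to 0.52 for *Nr5a2* after scaling to the reads within transcripts. For *Sall4*, *Yap1*, *Nfya*, *Klf17* and *Npm2* the lower bound passed a 2-fold decrease, so a decrease of that size lay inside the interval. Per kilobase of the longest coding transcript, the WT means in RPM were 1435 for *Npm2*, 115 for *Sall4*, 111 for *Klf17*, 96.8 for *Yap1*, 62.0 for *Rnf114*, 17.4 for *Pou5f1*, 14.1 for *Nfya*, 10.7 for *Ctcf*, 5.88 for *Nr5a2* and 0.036 for *Tead4*. Neighbours from *Sall4* to *Yap1* did not differ beyond their spread, with CVs of 49.8%, 23.1% and 60.4%, and neither did *Pou5f1* and *Nfya*, with CVs of 16.6% and 23.2%. The cKO means per kilobase were 889 for *Npm2*, 88.4 for *Yap1*, 71.8 for *Sall4*, 66.6 for *Klf17* and 55.8 for *Rnf114*, and from 8.19 (*Nr5a2*) to 15.9 (*Pou5f1*) for the other 4 genes tested.

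*Sall4* and *Yap1* varied more between oocytes of a genotype than between genotypes. In cKO replicate 4, *Sall4* was 2.11 lower on the log2 scale than the mean of the other cKO libraries, and in WT replicate 3 it was 1.59 lower than the mean of the other WT libraries (differences of -2.11 and -1.59). *Yap1* was higher by 1.43 and 1.38. Of the 9 genes, 1 was lower by over 1 log2 unit in both of these oocytes, against 3.64% of all transcripts, and 1 was higher, against 2.06%. *Npm2* was higher in both by 0.48 and 0.60, and *Klf17*, *Nfya* and *Rnf114* had differences from -0.61 to -0.41. Over all transcripts tested, the deviations from the genotype means correlated at 0.61 between these 2 oocytes, so their joint departures were not particular to these genes. The comparison of these 2 oocytes was chosen after their values had been seen. They also held the lowest summed levels of the granulosa and cumulus markers of their genotypes, at 29.8 RPM in cKO replicate 4 and 25.6 RPM in WT replicate 3. Their summed levels of the oocyte markers were the lowest of each genotype as well, at 16721 and 22817 RPM. Of 13 oocyte markers, 8 were lower in both of these oocytes and 5 higher in both, with differences from -1.81 (*Zp2*, a zona pellucida protein) to 0.75 (*Oosp1*, a secreted oocyte protein) in cKO replicate 4 and from -2.04 (*Ddx4*, a germ-cell RNA helicase) to 0.56 (*Oosp1*) in WT replicate 3.

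Without these 2 oocytes, *Klf17* had a log2 fold change of -0.81 (adjusted p = 0.0113), *Npm2* one of -0.61 (adjusted p = 0.0494) and *Sall4* one of -0.75 (adjusted p = 0.0243). These 3 of the 9 genes had an adjusted p under 0.05 in that fit, against 11.2% of all transcripts, and 0 passed the threshold with its 2-fold minimum. The oocytes left out were the lowest of each genotype for *Sall4* and *Klf17* and the highest of each for *Npm2*, so the spread of all 3 genes had to shrink, and these adjusted p-values are a description and no support for a difference.

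**Figure D3:**
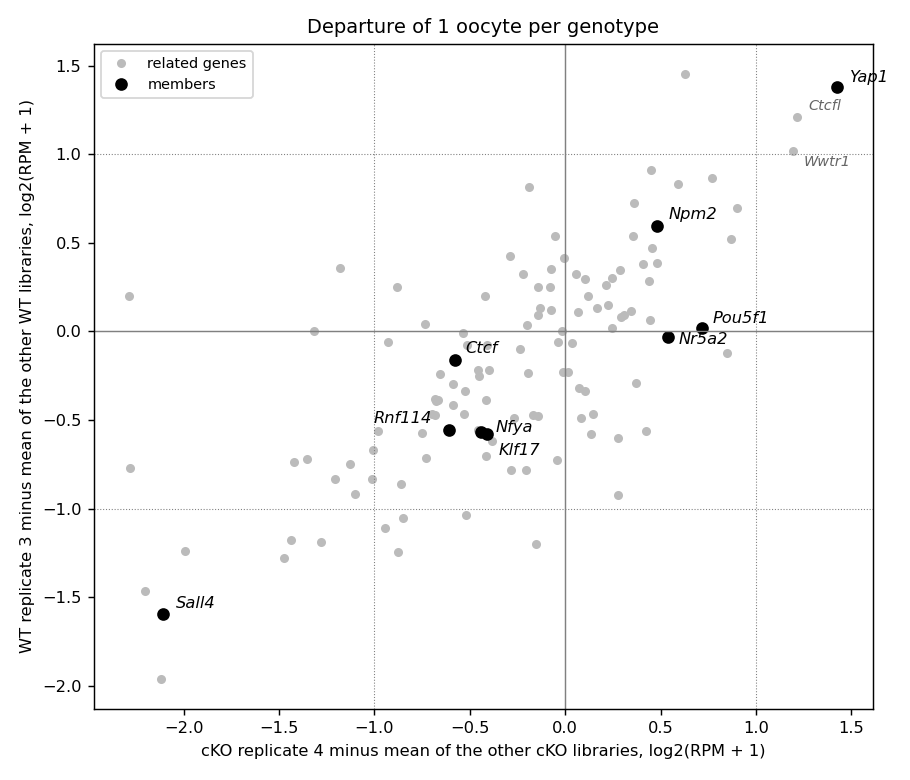
Difference in log2(RPM + 1) of cKO replicate 4 from the mean of the other cKO libraries (x axis) and of WT replicate 3 from the mean of the other WT libraries (y axis), for the 9 maternal factors tested (black) and 113 related genes (grey); dotted lines mark 1 log2 unit. *Sall4* lies at -2.11 and -1.59 and *Yap1* at 1.43 and 1.38, with the YAP1 paralogue *Wwtr1* and the CTCF paralogue *Ctcfl* near *Yap1*. Of the related genes, these 2 were higher by over 1 log2 unit in both oocytes, against 2.06% of all transcripts. A further 6 were lower in both, against 3.64%.

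Genes of the same pathways and families were read from 10 lists with 139 genes beside the 10 maternal factors, of which 128 had a transcript and 113 were tested. Of these 4 passed the threshold (3 higher and 1 lower), a share of 3.54%, against 5.71% of all transcripts. Both counts depend on the libraries: without WT replicate 1, 5 related genes and 372 of all transcripts passed. The median log2 fold change of the 113 genes was 0.11, against 0.12 over all transcripts. *Esrrb*, an orphan nuclear receptor of germ cells and pluripotent cells on the list around NR5A2, fell in the cKO. It stood at 41.9, 33.5, 54.2 and 34.5 RPM in the cKO and at 134, 125 and 175 RPM in the WT, with a log2 fold change of -1.80 (SE 0.24, adjusted p = 0.00359). *Klf4*, a relative of KLF17, rose from 2.40 ± 1.46 RPM in the WT to 12.1 ± 2.80 RPM in the cKO (log2 fold change 2.02, adjusted p = 0.00987). *Stat3*, which carries cytokine signals to the nucleus, rose from 30.9 ± 5.06 to 66.3 ± 10.4 RPM (1.08, adjusted p = 0.0184). *Zscan4f*, of a gene family known for its burst in the 2-cell embryo, rose from 7.71 ± 6.87 to 39.5 ± 20.6 RPM (2.32, adjusted p = 0.0288). Reads of its near-identical copies may be shared, so its own level is uncertain. *Esrrb* and *Klf4* passed in all 23 other settings, *Stat3* in 16 and *Zscan4f* in 17. Beside these, the lists of NR5A2 relatives, of KLF genes, of POU, SALL and pluripotency genes and of 2-cell genes had no other gene past the threshold among 10, 8, 8 and 7 tested.

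**Figure D4:**
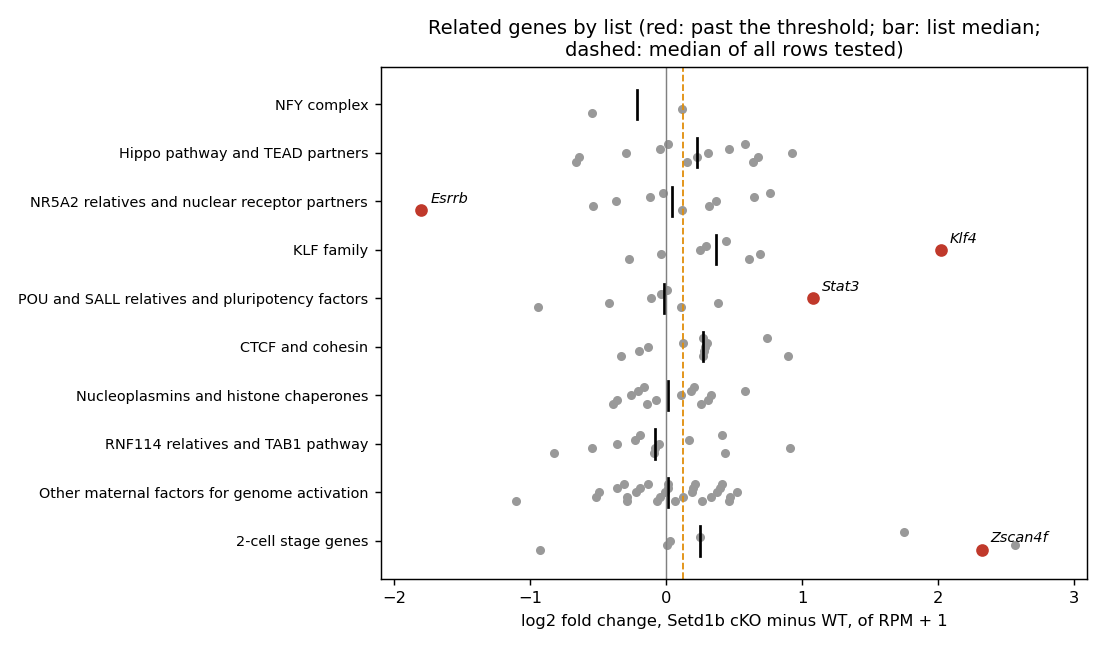
Log2 fold change of RPM + 1, *Setd1b* cKO minus WT (x axis), of the related genes tested, by list (y axis); red points passed the threshold, black bars are list medians and the dashed line is the median of all transcripts tested (0.12). Of 113 genes, *Esrrb* passed at -1.80, and *Klf4* (2.02), *Stat3* (1.08) and *Zscan4f* (2.32) passed on the higher side.

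None of the tested genes on the other 6 lists passed the threshold. These were 2 partners of NFYA (median log2 fold change -0.22), 13 genes of the Hippo pathway (0.23), 11 of CTCF and cohesin (0.27), 14 nucleoplasmins and histone chaperones (0.02), 12 around RNF114 and TAB1 (-0.09) and 28 other maternal factors (0.01). The NFY subunit *Nfyb* had a log2 fold change of 0.12 (adjusted p = 0.826) and *Nfyc* one of -0.55 (adjusted p = 0.414). *Wwtr1*, whose product TAZ is the paralogue of YAP1, stood at 21.9, 18.4, 21.0 and 47.9 RPM in the cKO and at 17.98, 17.4 and 36.9 RPM in the WT, highest in the same 2 oocytes as *Yap1*. *Tead1* was at 3.41 ± 0.515 RPM in the cKO and 1.32 ± 0.311 RPM in the WT, with all cKO libraries above the WT (log2 fold change 0.92, adjusted p = 0.0710). *Lats1*, a Hippo kinase, had a log2 fold change of 0.64 (adjusted p = 0.312). *Ctcfl* had one of 0.74 (adjusted p = 0.343) and the cohesin subunit *Rad21* one of 0.27 (adjusted p = 0.504). *Npm1*, the ubiquitous relative of NPM2, had one of 0.11 (adjusted p = 0.835).

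Among the other maternal factors, *Dppa3*, which protects the maternal genome from demethylation, stood at 8539 ± 1768 RPM in the cKO and 8496 ± 1948 RPM in the WT (log2 fold change 0.01, adjusted p = 0.991). *Dppa2* and *Dppa4*, partners known for activating 2-cell genes, had log2 fold changes of -0.07 (adjusted p = 0.899) and 0.41 (adjusted p = 0.312). *Tbpl2*, the oocyte's TATA-binding factor, stood at 10.3, 22.3, 33.1 and 11.5 RPM in the cKO and at 48.8, 42.3 and 27.3 RPM in the WT, with cKO replicate 3 above WT replicate 3 (log2 fold change -1.10, adjusted p = 0.126).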

How the data were processed

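The members of the group and the related gene lists were chosen with earlier results of these data known. RNA of single GV oocytes was amplified by the authors with the SMARTer Ultra Low kit, which does not keep the strand, and sequenced as single reads. Trimming was done with trim galore and mapping with Hisat on GRCm38. Hits of low mapping quality were removed, and SeqMonk was used to quantify previously defined oocyte transcripts with merged isoforms. The submitters' processing notes also name featureCounts 1.4.4 and bcl2fastq 1.8.4. Without strand, reads of a gene and of an overlapping antisense transcript cannot be told apart. Library preparation failed for a further WT oocyte.

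The authors deposited log2 RPM, relative to the mapped reads of a library, and entered 0 reads as 0.9 read. Whole reads were recovered for 100% of the values above 0 reads (tolerance 0.0001 of the count, a loose check for high counts). Genotypes were compared with limma 3.58.1 under R 4.3.3 (lmFit, then eBayes with trend) on log2(RPM + 1), over the 18179 transcripts that reached 1 RPM in 3 or more libraries, with no covariate and Benjamini-Hochberg adjustment over all of them. Fold changes of low genes are understated on this scale. Related genes were taken by GENCODE M21 span (overlap of at least 0.5 of the union), otherwise by the name in the table, a rule added after the data had been seen. Named genes were all members, each related gene past the threshold, direct partners from a fixed list, and the 3 genes most like the member with the lowest adjusted p. *Mos* and the other oocyte and granulosa markers named (*Zp2*, *Oosp1*, *Ddx4*, *Cyp19a1*, *Foxl2*, *Amh*, *Inha* and *Fshr*) fall outside this rule and were chosen after their values had been seen. Python 3.11.15 was used for the rest.

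In simulated data with 200 genes changed 4-fold (18154 transcripts tested), the fit recovered 95% of them with 7 false calls, and with no change it called 0 of 18185. Replicate numbers were not used to pair libraries. Alternatives covered the pseudocount, filter, scaling, variance model, voom, the replicate block and libraries left out.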

Additional observations from a re-analysis of the deposited data

Results flagged for a closer look

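On the strand opposite to *Tead4*, a short transcript that enters no comparison (chr6:128237200-128237690, plus strand) held 25 reads, 2.91 RPM, in cKO replicate 4 and 0 reads in each of the other 6 libraries. It was picked out because a signal appeared above the level of the WT libraries in data outside the comparison, in a single library. The strand is that of the listed transcript, because the kit does not keep the strand of the reads. Of the 9 genes tested, 0 had a cKO library apart from the other 3 by a gap, as a share of the range, above the 95% critical value of Dixon. Chance marks about 1 in 20 such groups. Only the cKO libraries were examined in this way. WT replicate 3 lay far from the other WT libraries for *Sall4* (248 RPM, against 747 and 752) and for *Yap1* (686 RPM, against 259 and 267).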

How the results depend on the processing

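No maternal factor passed the threshold in any of 25 alternatives, and 201 of 207 recomputed log2 fold changes of single genes kept their direction and their side of the threshold. The direction turned for *Pou5f1* (-0.39 to 0.10 with a library left out), *Yap1* (-0.50 to 0.31), *Rnf114* (-0.34 to 0.0072, the latter without WT replicate 1), and *Ctcf* (-0.044 when centred on the median gene, -0.014 with voom and median-of-ratios library sizes). Over all transcripts, 553 passed the threshold with a pseudocount of 5 RPM, 649 without a filter and 1751 with library quality weights, and from 280 (without WT replicate 2) to 1287 (without cKO replicate 4) with a library left out, against 1038. Of the related genes 7 passed with quality weights, 7 with the replicate block, 8 without cKO replicate 4 and WT replicate 3, and from 2 to 7 with a library left out, where cKO replicates 1, 2 and 3 or WT replicate 2 gave 2 and cKO replicate 4 gave 7.

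The replicate numbers share only a number: deviations of same-numbered libraries correlated at 0.19, 0.29 and -0.13. Over all pairs of a cKO with a WT library, the highest correlation was 0.61, between cKO replicate 4 and WT replicate 3. The lowest was -0.55, between cKO replicate 2 and WT replicate 3. With the replicate block, which leaves cKO replicate 4 without a partner, 1403 transcripts and 0 maternal factors passed, *Klf17* had -0.62 (adjusted p = 0.0484) and *Npm2* -0.80 (adjusted p = 0.0185). The causes of these changes were not tested. With 1 oocyte per library and 3 WT oocytes, precision is limited by their number, and low genes such as *Tead4* by depth.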

Other observations

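A transcript listed on the minus strand, wholly inside *Pou5f1* (chr17:35509077-35510551), had a read count of 25.0% to 29.5% of that of the *Pou5f1* transcript in every library. It stood at 7.13, 6.01, 2.53 and 8.39 RPM in cKO replicates 1 to 4 and at 8.18, 5.78 and 6.64 RPM in the WT, lowest in cKO replicate 3, as *Pou5f1* was.

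A further same-strand transcript listed under *Npm2* (chr14:70654246-70767634) runs across the neighbouring gene *Xpo7*. It stood at 19.6, 16.7, 20.1 and 30.8 RPM in the cKO and at 17.5, 11.1 and 14.6 RPM in the WT, so the genotypes overlapped, unlike those of the *Npm2* transcript described above.

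Among 13 oocyte markers tested, the transcript listed for *Mos*, the kinase that holds the egg in its second meiotic arrest, passed the threshold on the lower side, 1 of 13 against 5.71% of all transcripts. It was at 191 ± 19.0 RPM in the cKO and 486 ± 73.3 RPM in the WT (log2 fold change -1.34, adjusted p = 0.00581 with limma). This transcript was taken by its name. It overlapped the annotated gene by only 0.101 of the union of both spans, so its level need not be that of *Mos*. The median log2 fold change of the 13 markers was -0.38, against 0.12 over all transcripts, and 11 of them were below 0, against 39.7% of all transcripts.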
